A study of Mus musculus with 2 samples.

Results

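The 10 genes described here are a set of hypoxia response genes, *Hif1a*, *Epas1*, *Egln1*, *Egln3*, *Car9*, *Bnip3*, *Ndrg1*, *Ankrd37*, *Adm* and *Ddit4*, out of 31053 genes counted. They were taken by symbol from a list made with earlier results of these data known, and no value served as a threshold. Primary mouse brain pericytes (PCs, the contractile support cells that wrap brain capillaries) were profiled by single cell RNA sequencing as a culture at passage 5 (PC5) and a culture at passage 20 (PC20), with 1 droplet library each. Both cultures were of C57BL/6N origin and unmodified, and each was grown, by the methods of the study, from its own isolation of brains pooled from 6 wild-type females aged 6 to 8 weeks. The description deposited with the data speaks of only 1 isolation. Under the account in the methods, the effects of passage and of isolation cannot be told apart. The oxygen level during culture was not given in the sources used here.

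A cell was kept if it had over 1000 genes detected and if less than 20% of its UMIs were mitochondrial (UMIs are unique molecular identifiers, each a tag of 1 captured RNA molecule). This left 9950 PC5 cells with 223054273 UMIs and 4749 PC20 cells with 191122251 UMIs. The median cell held 21700 UMIs in PC5 and 33424 in PC20. Levels are given as CPM, the UMIs of a gene summed over the kept cells per 1000000 UMIs of the library. UMIs were counted at the 3' ends of transcripts, so a level does not scale with transcript length. To compare shares of cells at equal depth, each cell was thinned to the same number of UMIs, which 1103 PC5 and 275 PC20 cells did not reach, and 8847 and 4474 thinned cells remained. With 1 library per passage no test between passages was possible, and the 95% intervals given cover counting error only. The libraries shared 20 cell barcodes. Of the 6 pericyte markers examined, *Abcc9* was at 1 UMI in each library, *Kcnj8* was at 13 UMIs in PC5 and 0 in PC20, and *Rgs5* was at 405 and 0, so these 3 were absent or nearly so in PC20 and very low in PC5. *Pdgfrb* reached 44.6 CPM in PC5 against 5.43 CPM in PC20, *Cspg4* at 1237 and 19 UMIs and *Anpep* at 431 and 573 UMIs.

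In cells with enough oxygen, prolyl hydroxylases of the EGLN family hydroxylate the alpha subunits of the hypoxia-inducible factors (HIFs), which are then bound by the VHL protein and degraded. When oxygen is scarce the alpha subunits persist, pair with ARNT and bind a short core sequence, ACGTG or GCGTG, near genes of glycolysis, pH control, mitophagy and vessel growth. Much of this control acts on HIF protein, and its targets include the hydroxylases *Egln1* and *Egln3* themselves. In the brain, pericytes sit at the capillary wall and take part in the vascular response to low oxygen.

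Promoters of 8 of the 10 genes could be matched in the RefSeq table (build GRCm38.p6), which gives 250 bases before each start site and 50 after it. *Ndrg1* and *Epas1* were not matched. The core ACGTG or GCGTG was searched on both strands, so that CACGTG counts on each strand and CACGCGTG holds 1 match on each. At least 1 match lay in 8 of these 8 promoters, in 63.7% of the 10614 promoters of expressed genes and in 43.8% of all 32851 promoters. For promoters with 2 or more matches the values were 6 of 8, 34.7% and 20.6%. Of the 87 promoters of other HIF pathway genes, from the wider list described below, 72.4% held at least 1 match and 52.9% held 2 or more. The sets were not matched on base composition. A match describes the letters only, and no binding was measured. The start sites are those of RefSeq. In the GENCODE annotation those of *Ankrd37* and *Hif1a* lie 5857 and 6492 bases inside the gene, those of *Egln1*, *Ddit4*, *Car9* and *Bnip3* lie 13 to 70 bases inside, and those of *Adm* and *Egln3* lie outside. The bases before the start site are printed 5′ to 3′ on the strand of the gene, with each match in capitals in either orientation, for *Car9* (chr4:43506776-43507025, plus strand), which differed most between the passages, for *Bnip3* (chr7:138909507-138909756, minus strand) and *Ankrd37* (chr8:45999851-46000100, minus strand), which held the most matches, and for *Adm* (chr7:110627407-110627656, plus strand), the target gene that was higher in PC5.
Car9: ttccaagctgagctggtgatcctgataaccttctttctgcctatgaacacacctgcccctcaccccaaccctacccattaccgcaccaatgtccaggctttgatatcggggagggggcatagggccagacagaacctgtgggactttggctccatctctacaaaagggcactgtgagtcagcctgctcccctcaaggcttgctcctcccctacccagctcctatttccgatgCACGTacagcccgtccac
Bnip3: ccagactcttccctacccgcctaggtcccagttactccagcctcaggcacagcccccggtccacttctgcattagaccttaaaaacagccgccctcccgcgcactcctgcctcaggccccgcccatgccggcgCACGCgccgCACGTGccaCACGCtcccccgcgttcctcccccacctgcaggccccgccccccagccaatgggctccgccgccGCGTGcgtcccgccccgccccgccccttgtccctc
Ankrd37: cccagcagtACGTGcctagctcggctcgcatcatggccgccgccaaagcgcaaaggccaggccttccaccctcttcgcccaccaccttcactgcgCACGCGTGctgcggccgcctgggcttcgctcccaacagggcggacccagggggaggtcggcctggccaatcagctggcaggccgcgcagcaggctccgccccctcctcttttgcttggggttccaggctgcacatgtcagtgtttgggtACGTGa
Adm: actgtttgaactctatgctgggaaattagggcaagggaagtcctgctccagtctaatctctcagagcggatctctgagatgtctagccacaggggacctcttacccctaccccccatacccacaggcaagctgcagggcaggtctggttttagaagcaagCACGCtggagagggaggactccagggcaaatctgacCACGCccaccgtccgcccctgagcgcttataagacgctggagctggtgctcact
The *Car9* sequence held 1 match, in the last 18 bases before the start site. The *Bnip3* sequence held 5 matches, of which 4 lay in a cluster between 117 and 95 bases before the start. The *Ankrd37* sequence held 4 and the *Adm* sequence 2, the latter both GCGTG on the opposite strand. *Car9*, with 1 match, differed most between the passages, as described next. Whether the number of matches goes with the size of the difference was not tested.

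A total of 7 of the 10 genes were more than 2-fold higher in PC20, namely *Car9*, *Ndrg1*, *Ankrd37*, *Egln3*, *Bnip3*, *Egln1* and *Ddit4*. Another 2, *Epas1* and *Adm*, were more than 2-fold higher in PC5, and *Hif1a* lay within 2-fold. The background was 10504 expressed genes, detected in 10% or more of cells in PC5 or in PC20. Of these, 19.1% were more than 2-fold higher in PC20, 17.9% were more than 2-fold higher in PC5 and 37.0% were past 2-fold in either direction. The median log2 ratio of PC5 over PC20, in which a negative value means higher in PC20, was -1.58 for the 10 genes and -0.03 for the expressed genes. All 10 genes passed the 10% limit, *Epas1* only through PC5 and *Car9* only through PC20. A gene that passes in 1 library alone has to differ in its share of cells, though not necessarily past 2-fold in level.

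**Figure D1:**
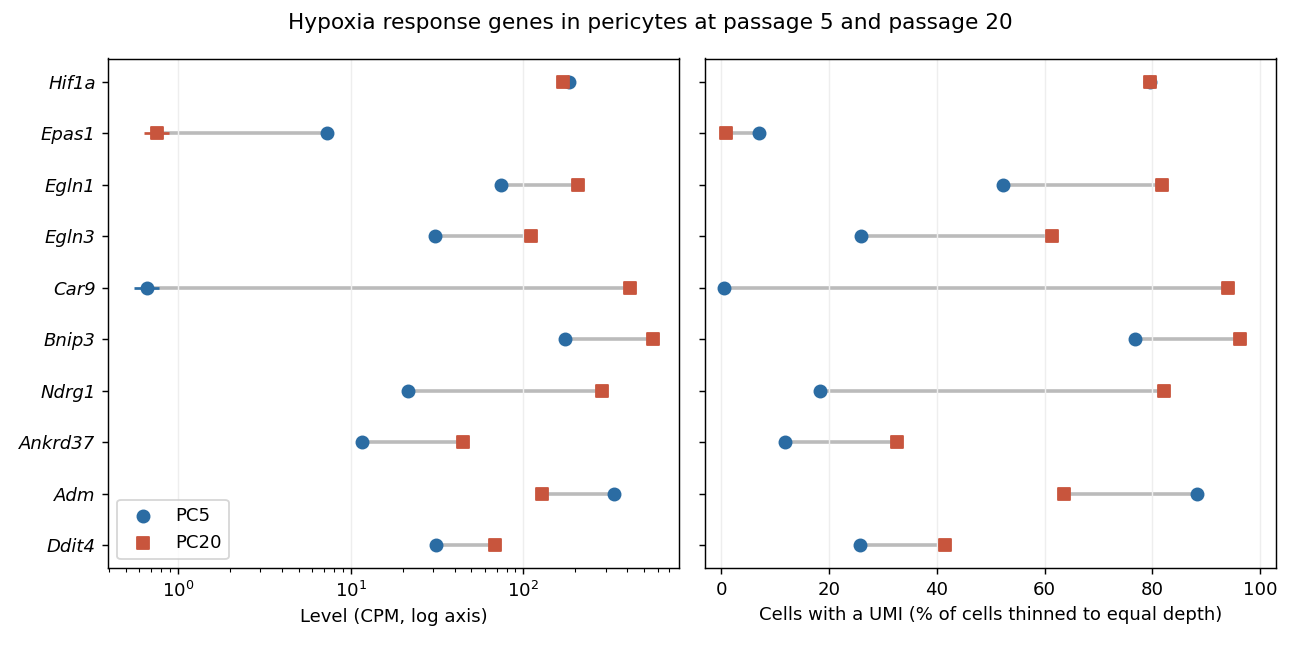
Level in CPM on a log axis (left) and share of thinned cells with a UMI (right) of the 10 genes in PC5 (blue circles) and PC20 (red squares), with 95% Poisson intervals on the levels, most of them smaller than the symbols. *Car9* spans the widest gap, from 0.664 to 414 CPM, *Hif1a* the smallest, and only *Hif1a*, *Epas1* and *Adm* have the PC5 symbol to the right in the level plot.

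Among the HIF subunits, *Hif1a*, which encodes the broadly expressed alpha subunit HIF-1α, measured 183 CPM in PC5 (95% interval 182 to 185) against 170 CPM in PC20 (168 to 172). It was seen in 79.6% of thinned cells of each library, and its log2 ratio of 0.11 was the smallest of the 10. The gene overlaps a protein-coding gene model on the same strand, *Gm49321*, with 0 UMIs in both libraries, so reads that fit both genes may be missing from its count.

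*Epas1*, which encodes HIF-2α and is a well known gene of adult brain pericytes and endothelial cells, was low in both cultures. It reached 7.27 CPM in PC5 (6.92 to 7.63) but 0.759 CPM in PC20 (0.640 to 0.893), for a log2 ratio of 3.26 (3.01 to 3.52). A UMI was seen in 7.01% of thinned PC5 cells and 0.782% of thinned PC20 cells. As a low reference, 10 genes of blood, neuron, liver, heart and pancreas lineages were counted in the same way. Their shares reached 0.520% in PC5 and 0.0671% in PC20. Genes of other lineages cannot gauge free RNA of the cultured cells themselves, which was not measured. The PC20 share of *Epas1* was above that of these genes and still under 1% of cells.

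*Hif3a*, which encodes a further alpha subunit, and *Arnt2*, a partner subunit known from neurons, were also higher in PC5. *Hif3a* went from 5.64 CPM in PC5 to 0.403 CPM in PC20 and *Arnt2* from 38.5 to 0.811 CPM, with log2 ratios of 3.81 and 5.57. *Arnt*, the general partner of the alpha subunits, measured 39.7 CPM in PC5 against 30.9 CPM in PC20. Hence 3 of the 5 subunit genes listed were past 2-fold, all in the direction of PC5, while *Hif1a* and *Arnt* were within it.

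Of the 3 oxygen-sensing prolyl hydroxylase genes, *Egln1* and *Egln3* were more than 2-fold higher in PC20. *Egln1*, which encodes PHD2, the main hydroxylase acting on HIF-1α, measured 74.4 CPM in PC5 against 206 CPM in PC20. Its log2 ratio was -1.47 (-1.50 to -1.44), and 52.3% and 81.7% of thinned cells held a UMI of it. *Egln3*, which encodes the strongly hypoxia-inducible PHD3, measured 30.9 CPM in PC5 against 111 CPM in PC20. Its log2 ratio was -1.84 (-1.88 to -1.81), and its shares were 25.9% and 61.4%. The third, *Egln2*, was lower in PC20, at 33.9 and 21.6 CPM (log2 ratio 0.65), within 2-fold, as were *Vhl* at 12.9 and 11.2 CPM and *Hif1an*, which encodes the asparaginyl hydroxylase FIH, at 8.64 and 12.1 CPM. Of the other turnover genes, *Siah2*, a ubiquitin ligase that acts on hydroxylases, had a log2 ratio of -1.70, and *Cited2*, which competes with HIF for its coactivators, one of 1.77.

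The target genes differed by very unequal amounts. *Car9* encodes carbonic anhydrase 9, a cell surface enzyme that buffers acid and is widely used as a marker of hypoxic tissue. Its 148 UMIs in PC5 gave 0.664 CPM (0.561 to 0.779) and its 79142 UMIs in PC20 gave 414 CPM (411 to 417), which is a 624-fold difference or a log2 ratio of -9.29 (-9.53 to -9.05). Among the expressed genes 0.190% had a ratio as low or lower. A UMI was seen in 94.1% of thinned PC20 cells and in 0.509% of thinned PC5 cells. The latter share was near that of *Tnnt2* (0.520%), the highest of the 10 reference genes of other lineages. *Tnnt2* itself had 107 UMIs in PC5 and 9 in PC20. The PC5 share of *Car9* was above that of the other 9, which reached at most 0.147%. The part of free RNA in the *Car9* counts of either library was not tested. Of the 113 kept PC5 cells with a *Car9* UMI, 101 held just 1 and 12 held more, and none of the 148 UMIs lay in a barcode shared by the libraries. The most in 1 PC5 cell was 10, against 139 in PC20.

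*Ndrg1*, a growth-control gene induced by low oxygen, metals and differentiation, measured 21.5 CPM in PC5 against 284 CPM in PC20. The difference was 13.2-fold (log2 ratio -3.73, from -3.77 to -3.68). Its share of thinned cells was 18.4% in PC5 and 82.1% in PC20. *Bnip3*, a receptor on mitochondria that directs their removal by autophagy, measured 175 and 562 CPM (log2 ratio -1.68, from -1.70 to -1.66) and was seen in 76.8% and 96.4% of thinned cells. *Ankrd37*, a small ankyrin-repeat gene known mainly as a HIF-1 target, measured 11.6 and 44.8 CPM (log2 ratio -1.95, from -2.01 to -1.88), with shares of 11.7% and 32.5%. It lies across from *Ufsp2* and *Lrp2bp* on the opposite strand, which stood at 45.5 and 0.695 CPM in PC5 and 79.6 and 0.194 CPM in PC20. *Ddit4*, which encodes REDD1, an inhibitor of mTORC1 induced by low oxygen and by other stresses, measured 31.2 and 68.8 CPM (log2 ratio -1.14, from -1.18 to -1.10) and was seen in 25.7% and 41.6% of thinned cells.

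*Adm*, which encodes adrenomedullin, a secreted peptide that widens vessels, stood the other way. It was the most abundant of the 10 genes in PC5, at 334 CPM (332 to 337), and reached 129 CPM in PC20 (127 to 130), so that its log2 ratio was 1.38 (1.36 to 1.40). It was seen in 88.4% of thinned PC5 cells and 63.6% of thinned PC20 cells.

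By level, PC5 ran in the order *Adm*, *Hif1a*, *Bnip3*, *Egln1*, *Ddit4*, *Egln3*, *Ndrg1*, *Ankrd37*, *Epas1* and *Car9*. Only *Ddit4*, at 31.2 CPM (30.4 to 31.9), and *Egln3*, at 30.9 CPM (30.2 to 31.7), were neighbours whose intervals overlapped. PC20 ran in the order *Bnip3*, *Car9*, *Ndrg1*, *Egln1*, *Hif1a*, *Adm*, *Egln3*, *Ddit4*, *Ankrd37* and *Epas1*, with no overlapping neighbours. *Car9* went from last to second. These intervals hold no spread between cultures, which was not measured.

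Levels of cell type markers and of proliferation genes also differed between the passages, and no cells were assigned to a type by them. Of the epithelial markers, *Krt8* and *Krt18* had 0.0269 and 0.134 CPM in PC5 but 98.4 and 913 CPM in PC20, while *Epcam* was at 11 and 51 UMIs and *Cdh1* at 4 and 25 UMIs, so the 4 genes summed to 0.229 CPM in PC5 against 1012 CPM in PC20. The 4 fibroblast markers summed to 1302 CPM in PC5 against 101 CPM in PC20 (*Lum* at 0 in PC20), the 6 pericyte markers to 53.9 and 8.53 CPM (*Rgs5* and *Kcnj8* at 0 in PC20), the 4 smooth muscle markers to 283 and 49.6 CPM, and the 4 endothelial markers to 13.4 and 0.225 CPM. The PC20 fibroblast sum was nearly all *Col3a1* (101 CPM), while *Pdgfra* went from 19758 to 25 UMIs and *Dcn* from 11434 to 32. Of the smooth muscle markers, *Tagln* went from 219 to 0.230 CPM, while *Acta2* was at 62.8 and 49.2 CPM. The PC5 endothelial sum was nearly all *Kdr* (12.8 CPM). The 4 microglia markers summed to 4.09 and 0.801 CPM (*Ptprc* at 0 in PC20), the 4 oligodendrocyte markers to 0.915 and 0.931 CPM, with *Mobp* at 0 in both, and the 4 astrocyte markers to 151 and 229 CPM. The astrocyte sum was nearly all *Slc4a4* (143 and 229 CPM), while *Aldh1l1* went from 1640 to 5 UMIs, *Aqp4* from 28 to 1 and *Gfap* from 97 to 0. The proliferation genes *Mki67* (log2 ratio -2.50) and *Top2a* (-1.38) were more abundant in PC20. The part of these in the differences between passages was not tested. Within PC20, *Krt18* was seen in 99.1% of thinned cells and its Pearson's *r* with the 10 genes lay between -0.0090 and 0.180. It was highest with *Ankrd37* (0.180), *Egln1* (0.148), *Ndrg1* (0.147), *Adm* (0.144), *Car9* (0.140), *Bnip3* (0.128) and *Egln3* (0.116). These values were above 0.0827, the 99th percentile over all gene pairs in PC20. Those of *Ddit4* (0.0584), *Epas1* (0.0367) and *Hif1a* (-0.0090) were below it. The gene pairs were not matched on level, and a higher level by itself allows a higher *r*. The cause was not tested.

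Cycling cells were also compared with the rest inside each library. Cells with and without a *Mki67* or *Top2a* UMI differed by at most 0.32 on the log2 scale in 9 of the 10 genes in each library, the exception being *Epas1* (0.62 in PC5, 0.72 on few UMIs in PC20). Within PC20, *Ndrg1* was at 281 CPM in cycling cells and 345 CPM in the other cells, and *Ankrd37* at 44.7 and 55.5 CPM. The split above was made on thinned cells. In kept cells with no *Mki67* or *Top2a* UMI before thinning, 7 genes were again past 2-fold toward PC20 and 2 toward PC5.

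The wider HIF pathway was then described with a list of 91 genes by role, 86 of which were expressed. Of the 86, 42 (48.8%) were more than 2-fold higher in PC20, 15 (17.4%) were more than 2-fold higher in PC5 and 29 were within 2-fold. The median log2 ratio was -0.94. Without the 10 genes, 35 of 76 (46.1%) were higher in PC20 and 13 (17.1%) in PC5, at a median of -0.86. Without the 10 genes and the genes of glucose uptake and glycolysis, 22 of 55 (40.0%) were higher in PC20 and 12 (21.8%) in PC5, at a median of -0.49. Against the background of 19.1% and 17.9%, the share toward PC20 was above it and the share toward PC5 was near it. No test of the list was made.

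**Figure D2:**
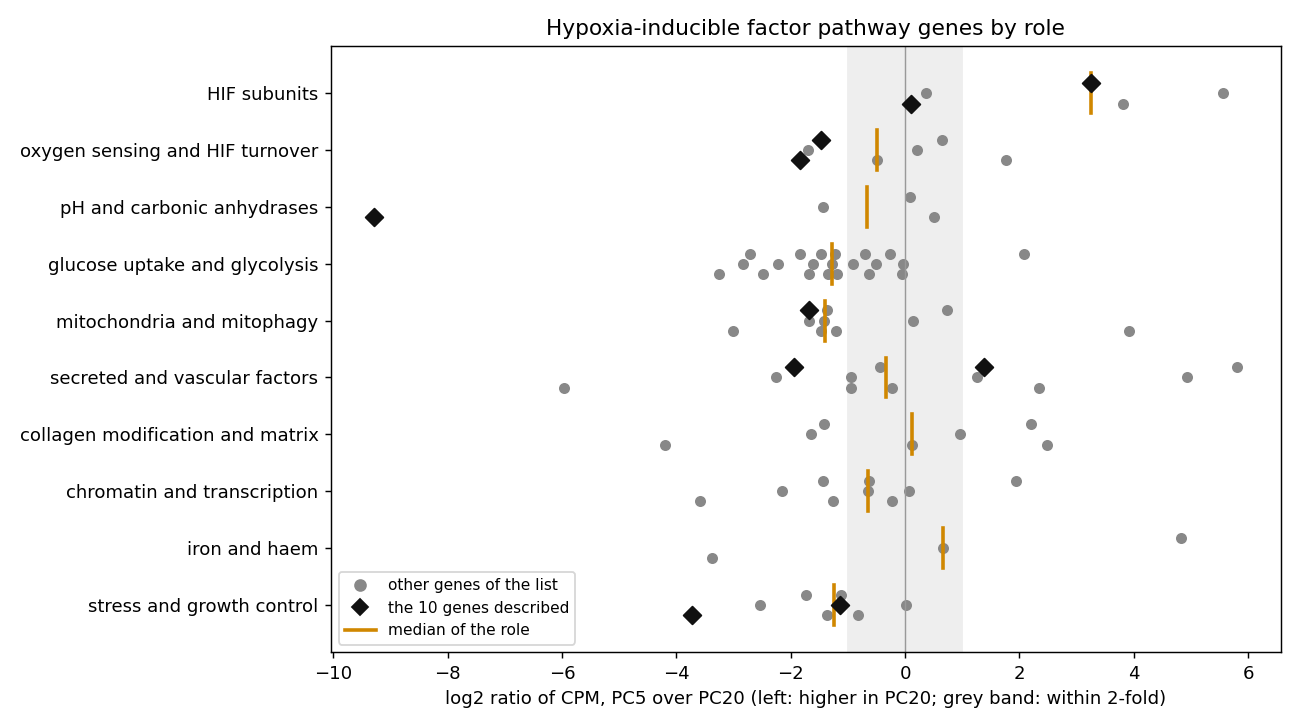
Log2 ratio of CPM in PC5 over PC20 for the 86 expressed genes of the wider list, 1 symbol per gene, by role, with the 10 genes as black diamonds, the median of each role as an orange bar and the range within 2-fold in grey. Glycolysis and mitochondrial genes lie mostly to the left (higher in PC20), with medians of -1.28 and -1.39, the HIF subunits to the right, and secreted factors on both sides.

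Genes of metabolism made up much of the lean toward PC20. In glucose uptake and glycolysis, 13 of 21 expressed genes were more than 2-fold higher in PC20, led by *Aldoc* and *Gpi1*, glycolytic enzymes, with log2 ratios of -3.26 and -2.84, *Pfkp*, a phosphofructokinase, with -2.71, and *Slc2a1*, the glucose transporter GLUT1, with -2.48. The 1 gene of this role past 2-fold toward PC5 was *Pfkfb4*, at 2.08, named here after its value was seen. Among mitochondrial genes 7 of 10 were higher in PC20, including *Bnip3*, the protease gene *Lonp1*, which went from 19.8 CPM in PC5 to 159 CPM in PC20, and *Higd1a*, which acts on respiratory complexes, at -1.69. *Ndufa4l2*, a HIF target that lowers complex I activity and marks pericytes in brain atlases, stood opposite at 3.91, with 33.7 CPM in PC5 and 2.23 CPM in PC20. In stress and growth control 6 of 8 were higher in PC20, among them *Ndrg1*, *Ddit4*, the lipoprotein receptor gene *Vldlr* at -2.53, the lipid droplet gene *Plin2* at -1.74 and *Selenbp1* at -1.36.

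Secreted factors and matrix genes were split. Among secreted and vascular factors 5 of 12 were more than 2-fold higher in PC5 and 3 in PC20. *Stc1*, which encodes the hormone stanniocalcin, went from 59.7 CPM in PC5 to 1.06 CPM in PC20, *Angptl4*, an inhibitor of lipoprotein lipase, from 26.3 to 0.858 CPM, and *Igfbp3*, a binding protein of insulin-like growth factors, from 194 to 38.4 CPM, so that *Adm* shared its direction with other secreted factors. *Pdgfb*, the ligand of the pericyte receptor PDGFRβ, was the gene farthest toward PC20 here, at 18 UMIs in PC5 and 966 in PC20. Among collagen-modifying genes 3 of 7 were higher in PC20 and 2 in PC5. *Ero1l*, an oxidase of protein folding in the endoplasmic reticulum, measured 144 CPM in PC5 against 2639 CPM in PC20, and the prolyl hydroxylase gene *P4ha2* had a log2 ratio of -1.64, whereas *Loxl2* and *Plod2*, which act in collagen crosslinking, had 2.48 and 2.20.

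In the remaining roles, 4 of 9 chromatin and transcription genes were higher in PC20 and 1 in PC5. The clock repressor gene *Bhlhe41* had a log2 ratio of -3.58, the histone demethylase gene *Kdm4c* and the oxygenase gene *Jmjd6* had -2.16 and -1.43, and the nuclear receptor gene *Rora* had 1.95. Of the other pH genes, the bicarbonate transporter gene *Slc4a7* was past 2-fold at -1.44, and *Slc16a3*, which encodes a lactate transporter, was at 0.09. Haem oxygenase, *Hmox1*, had -3.38, and *Trf*, which encodes the iron carrier transferrin, had 4.83, while its receptor gene *Tfrc* had 0.67.

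Cells of 1 library were next compared among themselves. Over the thinned PC20 cells, Pearson's *r* of the log of UMIs plus 1 had a median of 0.182 over the 36 pairs of the 9 genes seen in at least 10% of cells, and 33 of the pairs were above 0. Over all 7300 genes seen in at least 10% of these cells, the median pair had an *r* of 0.0044 and the 99th percentile was 0.0827. Of all these pairs, 58.2% were above 0. The highest values were 0.471 for *Bnip3* and *Ndrg1*, 0.350 for *Egln1* and *Bnip3*, 0.348 for *Car9* and *Bnip3*, 0.340 for *Egln1* and *Ndrg1* and 0.325 for *Ndrg1* and *Ankrd37*. The 15 pairs among *Egln1*, *Egln3*, *Car9*, *Bnip3*, *Ndrg1* and *Ankrd37* had a median of 0.267, from 0.0984 to 0.471. This subset leaves out *Adm*, *Hif1a* and *Ddit4*, whose medians in the same cells, given next, were lower. Its higher median follows in part from that choice. *Adm*, although lower in PC20, had a median of 0.210 with its 8 partners and reached 0.279 with *Ndrg1*. *Hif1a* stood apart, with a median of 0.0265 and a range of -0.0376 to 0.0810, and *Ddit4* lay between, with a median of 0.100. These are descriptions over 4474 cells of 1 library, which share its preparation and depth.

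In PC5 the values were small. Over 8847 thinned cells and the 28 pairs of 8 genes (all but *Epas1* and *Car9*) the median *r* was 0.0245 and 20 pairs were above 0. Over all pairs of 7434 genes the median was 0.0052, the 99th percentile was 0.0783 and 61.7% of pairs were above 0. The highest were 0.175 for *Hif1a* and *Bnip3*, 0.167 for *Egln1* and *Bnip3*, 0.123 for *Hif1a* and *Egln1* and 0.121 for *Bnip3* and *Ndrg1*. The 10 pairs among *Egln1*, *Egln3*, *Bnip3*, *Ndrg1* and *Ankrd37* had a median of 0.0670, from 0.0117 to 0.167, and all 10 were above 0. Every PC5 pair below 0 held *Adm* or *Ddit4*, which this subset leaves out, so the lack of values below 0 follows from the choice. These weak correlations are given as values only. *Adm* had a median *r* of -0.00076 with the other 7 genes in PC5.

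A higher level by itself allows a higher *r*. Over the 8 genes seen in both libraries the PC20 median was 0.159, and when the UMIs of each gene were thinned in the library where it was higher to its mean in the other, the medians became 0.0746 in PC20 and 0.0244 in PC5. With levels matched in this way, *Bnip3* and *Ndrg1* had 0.180 in PC20 and 0.121 in PC5, *Egln1* and *Bnip3* had 0.208 and 0.167, and *Adm* and *Bnip3* had 0.197 and 0.0511. *Hif1a* and *Bnip3* had 0.0464 in PC20 and 0.174 in PC5. Also lower in PC20 were *Egln3* and *Bnip3* (0.0697 and 0.108), *Egln3* and *Ndrg1* (0.0333 and 0.0487) and *Egln1* and *Egln3* (0.0859 and 0.0890). The pairs named are examples, and other pairs went either way. This comparison was chosen after the data were seen.

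**Figure D3:**
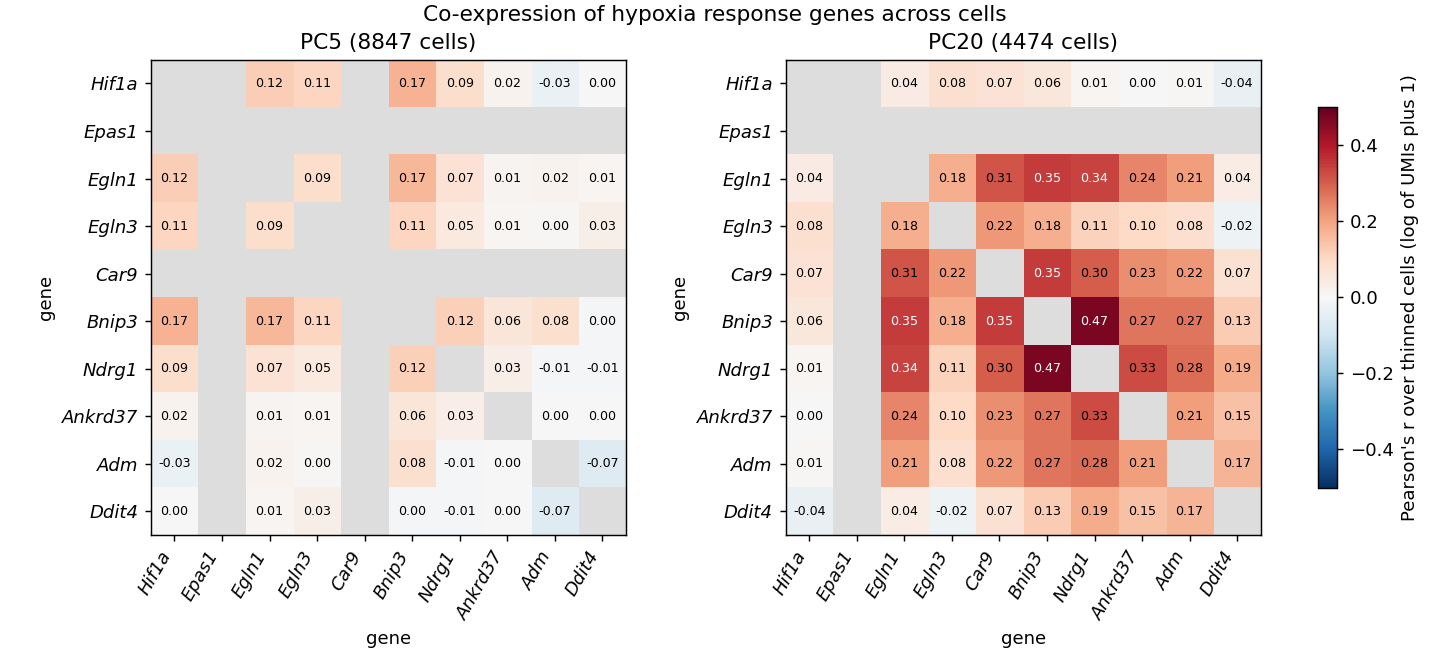
Pearson's *r* over thinned cells for each pair of the 10 genes, in 8847 PC5 cells (left) and 4474 PC20 cells (right), without level matching, with red above 0 and blue below 0, and grey for a gene with itself or seen in under 10% of cells. In PC20 the block from *Egln1* to *Adm* is red, up to 0.471 for *Bnip3* and *Ndrg1*, the row of *Hif1a* is pale in PC20, and in PC5 no pair is above 0.175.

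The genes most like each one across PC20 cells were largely shared. *Bsg*, which encodes basigin, a chaperone of lactate transporters, had the highest *r* of all genes with *Egln1* (0.366), *Car9* (0.427) and *Adm* (0.298), and *Ero1l* and *Gpi1* were among the first 3 for *Car9* (0.405 and 0.401) and *Bnip3* (0.467 and 0.426). *Ndrg1* was nearest to *Bnip3*, then *Ero1l* (0.421) and *Bsg* (0.404), and *Ankrd37* to *Ndrg1*, *Bsg* (0.304) and *Gpi1* (0.285). Of the 50 genes nearest to each, 28 belonged to the wider HIF list for *Bnip3* and for *Ndrg1*, 27 for *Egln1*, 25 for *Adm*, 24 for *Ankrd37*, 22 for *Car9* and 17 for *Egln3*. For scale, the list made up 79 of the 8362 genes seen in at least 10% of thinned cells of either library. It includes the 10 genes themselves, so these counts, and those for PC5 below, take in pairs already described. Genes were not matched on level for these counts. *Egln3* was nearest to *Scd2*, a fatty acid desaturase, at 0.272. The list held 6 of the 50 nearest to *Ddit4* and 1 of those nearest to *Hif1a*. *Ddit4* was nearest to *Bhlhe40*, a transcriptional repressor that is itself a HIF target (0.345), *Nfkbia*, the inhibitor of NF-κB (0.335), and *Sox9* (0.303). *Hif1a* was nearest to *Ahnak* (0.195), *Hspa9* (0.170) and *Ero1l* (0.166).

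In PC5, *Bnip3* was nearest to *Plod2* (0.271), *Pgk1* (0.260) and *Ero1l* (0.246), with 14 of the nearest 50 in the wider list, and *Egln1* to *Bnip3*, *Ero1l* (0.148) and *Pgk1* (0.142), with 17. *Adm* was nearest to *Col8a1* (0.304), *Ctgf* (0.285) and *Cemip* (0.272), genes of matrix and its turnover, and only 2 of its nearest 50 were in the list, where 25 had been in PC20. *Hif1a* was nearest to *Marcks*, *Hmgb1* and *Tpi1* (0.192 to 0.196) and *Egln3* to *Tpi1*, *Fmo2* and *Postn* (0.121 to 0.126). *Ndrg1* was nearest to *Marcks*, *Bnip3* and *Cthrc1* (0.116 to 0.123), *Ankrd37* to *Spp1*, *Mt1* and *Trf* (0.0886 to 0.101), and *Ddit4* to *Maf*, *Rpl7a* and *Sned1* (0.0906 to 0.110), with 0 of its nearest 50 in the list.

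Several of the 10 genes, among them *Ddit4* and *Ndrg1*, also answer to the integrated stress response, so 12 genes of its factor ATF4 and its targets were set beside them. Of these 12, 10 were more than 2-fold higher in PC20 and none in PC5, against 19.1% and 17.9% of all expressed genes. Their median log2 ratio was -3.44. Across PC20 cells the median *r* with the 11 of these genes seen in at least 10% of cells was -0.0296 for *Ddit4*, -0.0114 for *Ankrd37*, 0.00057 for *Adm*, 0.0155 for *Ndrg1*, 0.0344 for *Bnip3*, 0.0519 for *Egln1*, 0.0640 for *Hif1a*, 0.0649 for *Egln3* and 0.105 for *Car9*. For *Hif1a* this was above its median with the other 8 genes (0.0265), and for the rest it was below. The highest single values were with *Ddit3*, which encodes the stress factor CHOP. They were 0.362 for *Ndrg1*, 0.313 for *Bnip3*, 0.199 for *Adm*, 0.186 for *Ankrd37* and 0.172 for *Egln1*. *Slc3a2* with *Ndrg1* had 0.179, and *Trib3* had 0.157 with *Bnip3* and 0.156 with *Car9*. For each of the 9 genes the highest value was above the 99th percentile of all pairs (0.0827), down to 0.0910 for *Hif1a* with *Asns*. The median of *Car9* was above it as well. Each highest value was picked from 11, which by itself raises it against a percentile of single pairs. Levels were not matched here either. Values below 0 reached -0.123, for *Ddit4* with *Phgdh*. In PC5 the medians over 8 such genes lay between -0.0411 and 0.0037 for the 8 genes seen there.

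Cell by cell, a PC5 cell showed a median of 4 of the 10 genes and a PC20 cell a median of 6, at equal depth. In PC20, 17.9% of cells showed 8, 5.50% showed 9 and 5 cells showed all 10, while no PC5 cell showed more than 8. *Car9* and *Epas1* were seen in only 0.509% and 7.01% of thinned PC5 cells, so these counts in part restate the shares of single genes. The variance of the number of genes shown was 1.65 in PC5, where independent genes with the same shares would give 1.40. In PC20 it was 2.40, where they would give 1.49.

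**Figure D4:**
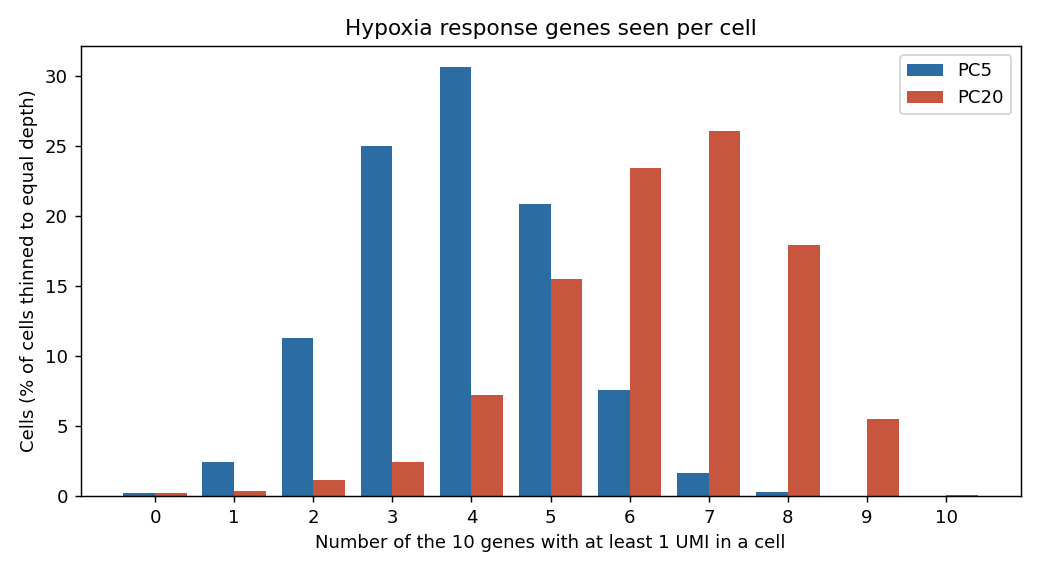
Share of thinned cells by the number of the 10 genes with at least 1 UMI, in PC5 (blue) and PC20 (red). The PC5 bars peak at 4 genes, with 30.6% of cells, and the PC20 bars at 7 genes, with 26.1%.

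*Ndrg1* had the highest ratio of variance to mean over thinned cells among the 10 genes in PC20. Its ratio was 4.19, where the median gene had 1.08 and the 90th percentile of genes was 1.44. It was seen in 82.1% of cells where Poisson counts with its mean would give 96.1%. The 10% of cells with the most UMIs of a gene held 36.7% for *Ndrg1*, 37.5% for *Adm*, 51.9% for *Ddit4* and 54.3% for *Ankrd37*. They held less than for *Ndrg1* in the case of *Egln1*, *Hif1a* and *Egln3*. All of these other genes were of lower level than *Ndrg1*, so a lower level did not always go with a larger share. *Ddit4* had a ratio of 3.00, *Bnip3* 2.75, *Adm* 2.19, *Car9* 1.87, *Ankrd37* 1.86, *Egln1* 1.69, *Egln3* 1.38 and *Hif1a* 1.29. These ratios depend in part on the level of a gene, and genes were not matched on it. The mean per thinned cell was 3.24 UMIs for *Ndrg1* and 0.780 for *Ddit4*. In PC5 *Adm* had the highest ratio, at 2.68, followed by *Car9* at 1.85 on its few UMIs, *Bnip3* at 1.72 and *Hif1a* at 1.57.

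The 266 thinned PC20 cells without a *Car9* UMI were lower in several of the other genes. They held 117 CPM of *Ndrg1* where the 4208 cells with a *Car9* UMI held 320 CPM, 304 against 605 CPM of *Bnip3*, 92.7 against 217 CPM of *Egln1*, 59.4 against 143 CPM of *Adm* and 15.0 against 51.4 CPM of *Ankrd37*. *Ddit4* was at 68.0 and 74.7 CPM and *Hif1a* at 135 and 176 CPM. *Krt18* was seen in 97.4% of the cells without a *Car9* UMI and 99.2% of those with one, at 812 and 946 CPM. The median share of ribosomal protein UMIs was 35.7% and 32.1%. Across PC20 cells *Car9* had an *r* of -0.265 with the ribosomal share and of -0.0105 with the depth before thinning. Their part in these values was not tested.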

How the data were processed

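Libraries from mouse brain PCs cultured to passage 5 or passage 20, 1 of each, were grouped as labelled. The deposited values are UMI counts per gene and barcode, which the authors made from 3' droplet libraries with Cell Ranger 5.0 (5.0.1 in the file headers) on mm10, with cell-holding barcodes called and no normalization applied. Kept cells had over 1000 genes and less than 20% of UMIs from mitochondrial genes, which are the limits of the study's methods. No doublets were removed. CPM was taken from UMIs summed over kept cells, and log2 ratios carry no pseudocount. Where a gene had no UMI in a library and over 3 in the other, 3 UMIs stood in for the absent count. A gene with at most 3 UMIs in both libraries had no ratio. The 95% intervals are exact Poisson for levels, exact conditional binomial for ratios and Clopper-Pearson for shares, and cover counting error only. The files list 31053 genes, 10504 of them expressed (seen in 10% or more of cells of a library). Cells were thinned without replacement to 1 common depth for shares and Pearson's *r*, and shallower cells were left out. Computations used Python 3.11.15, NumPy 2.4.6 and SciPy 1.17.1 and were tested on simulated libraries. *Aldoa* has more than 1 identifier and was summed. The genes named are all 10, up to 4 per role of the wider list with the largest ratio, and the 3 nearest by *r* per gene. A gene of the wider list that this rule takes in is not reported here by name. The 10 genes, the lists and the tests were chosen with earlier results of these data known. Gene positions and overlaps came from GENCODE on GRCm38 and promoters from RefSeq. Alternatives were other cell filters, depths, scalings, detection limits and correlation measures.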

Additional observations from a re-analysis of the deposited data

How the results depend on the processing

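No paired analysis was possible because each passage has 1 library. The counts of the 10 genes past 2-fold, 7 toward PC20 and 2 toward PC5, were the same under other cell filters, without cycling cells (any *Mki67* or *Top2a* UMI), after thinning, without the 5% of cells with the most UMIs, under the other library size, with centring, as means over cells and without shared barcodes (the last chosen after seeing the data). In these 9 settings no log2 ratio of the 10 genes changed sign, although 23 of the 90 values left their counting intervals, and *Car9* ranged from -9.44 to -8.85, *Hif1a* from 0.04 to 0.15. The median log2 ratio of the wider list moved from -0.94 to -1.08 without cycling cells, -1.12 after thinning, -1.14 for genes seen in at least 10% of cells of both libraries and -0.86 without the 10 genes. With the limit in both libraries, 7 of its genes instead of 15 were past 2-fold toward PC5, since genes seen in PC5 alone drop out. The median *r* of pairs went from 0.0245 to 0.0492 in PC5 and from 0.182 to 0.273 in PC20 on cells not thinned, to 0.228 in PC20 without cycling cells and to 0.0746 in PC20 with levels matched. For the moves other than those by construction the cause was not tested. Depth limits *Car9* in PC5, on 148 UMIs, and *Epas1* in PC20, on 145 UMIs.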

Other observations

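The barcodes left out by the cell filter also carried the genes. The 135 left-out PC20 barcodes held 184103 UMIs, 58 of them from *Car9* (315 CPM, 95% interval 239 to 407), 41 from *Bnip3* (223 CPM) and 32 from *Ndrg1* (174 CPM). The 679 left-out PC5 barcodes held 924207 UMIs, 3 of them from *Car9* and 195 from *Adm* (211 CPM). *Gm12454*, an antisense gene across from *Car9*, had 388 UMIs in PC5 and 824 in PC20. The 140 kept PC20 cells without a *Car9* UMI before thinning had a median of 9126 UMIs, while the 4609 with one had a median of 34008.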
